A study of Homo sapiens with 8 samples.

Results

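The clustered replication-dependent histone genes encode the linker histone H1 and the core histones H2A, H2B, H3 and H4 that package newly replicated DNA. They were taken as every row of the expression table whose symbol starts with HIST1H, HIST2H, HIST3H or HIST4H, which gave 72 of 25593 rows: 6 H1, 17 H2A, 20 H2B, 14 H3 and 15 H4 genes. Of these, 35 reached an FPKM of at least 1 in 2 or more of the 8 libraries and were tested. FPKM gives the fragments of a gene scaled by transcript length and by how many fragments the library mapped. In these data the summed FPKM of the 72 genes was 582.9 and 572.5 in cinobufagin-treated HL60 libraries, against 90.4 and 90.3 in untreated HL60 libraries, and the change in Kasumi-1 cells was smaller.

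RNA was sequenced from Kasumi-1 and HL60, both human acute myeloid leukaemia cell lines, after 24 h with 100 nM cinobufagin or with none. Cinobufagin, a steroid from toad venom of the bufadienolide class, inhibits the sodium-potassium ATPase. The 4 groups, of 2 libraries each, were Kasumi-1 with cinobufagin, Kasumi-1 untreated, HL60 with cinobufagin and HL60 untreated. Both lines were grown in RPMI-1640 with penicillin-streptomycin and fetal bovine serum, at 20% for Kasumi-1 and 10% for HL60, so serum and line cannot be told apart. Each line is a single established culture that stands for 1 donor, Kasumi-1 carries the RUNX1-RUNX1T1 fusion and HL60 an amplified MYC. Whether the libraries of 1 group are separate cultures is not stated in the labels, and p-values therefore cover the variation between libraries, be it technical or biological.

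Clustered histone genes are mostly transcribed in S phase, when NPAT, a coactivator phosphorylated by cyclin E-CDK2, drives them at histone locus bodies. Their transcripts have no introns and mostly end not in a poly(A) tail but at a conserved stem-loop, which is bound by SLBP and cleaved with the help of the U7 small nuclear ribonucleoprotein. Cells that leave the cycle or differentiate are known to make polyadenylated forms of some of these mRNAs, from signals downstream of the stem-loop. The libraries were prepared with a kit that selects poly(A) RNA, so the values cover the part of the histone mRNA that this selection kept, and tail-less histone mRNA is measured poorly. In bulk RNA, fewer cells expressing a gene and less RNA per cell cannot be told apart.

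The stem-loop is where such a transcript is usually cut, so it is shown for 7 genes whose values are described here. Searching GENCODE release 29 transcripts for the histone 3′ stem-loop found one in 33 of the 72 genes. The 16 bases of the stem-loop are in capitals, with 5 bases on each side, written as DNA from 5′ to 3′.
HIST1H2AC: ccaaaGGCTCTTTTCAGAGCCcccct
HIST1H2AG: ccaacGGCTCTTTTCAGGGCCaccca
HIST1H2BC: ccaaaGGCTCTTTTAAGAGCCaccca
HIST2H2BE: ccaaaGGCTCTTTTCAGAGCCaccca
HIST1H3H: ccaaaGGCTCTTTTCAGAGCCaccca
HIST1H4H: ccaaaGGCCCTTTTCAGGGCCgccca
HIST2H4A: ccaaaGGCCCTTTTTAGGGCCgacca
The form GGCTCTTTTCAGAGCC was found in 17 genes, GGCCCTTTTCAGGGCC in 5, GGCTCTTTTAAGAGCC in 5, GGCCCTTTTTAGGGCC in 3, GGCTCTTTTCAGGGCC in 2 and GGCTCTTCTCAGAGCC in 1. Many of the annotated models stop at the coding end, so a gene without a match is not shown to lack a stem-loop.

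Promoters of 4 genes are shown because the genes differ in response: HIST1H2BK was higher with cinobufagin in both lines, HIST1H2BO in HL60 cells, HIST1H2AC shares a start region with HIST1H2BC, and HIST1H4K was called in neither line. Each sequence runs from 250 bases before to 50 bases after the start in the RefSeq table of build GRCh38.p14, which is not the hg19 build of the expression table. Capitals mark the TATA box letters TATAAA, the box known as CCAAT and the octamer ATTTGCAT on either strand, and overlapping matches run together. HIST1H2BK lies at chr6:27146809-27147108 on the minus strand, HIST1H2BO at chr6:27893175-27893474 on the plus strand, HIST1H2AC at chr6:26123922-26124221 on the plus strand and HIST1H4K at chr6:27831511-27831810 on the minus strand.
HIST1H2BK: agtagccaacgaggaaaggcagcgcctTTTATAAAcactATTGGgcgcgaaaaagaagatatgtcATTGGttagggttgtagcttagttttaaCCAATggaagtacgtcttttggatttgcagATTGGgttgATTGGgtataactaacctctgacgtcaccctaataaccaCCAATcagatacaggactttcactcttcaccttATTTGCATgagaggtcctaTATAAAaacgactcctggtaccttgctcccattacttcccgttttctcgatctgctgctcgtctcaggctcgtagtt
HIST1H2BO: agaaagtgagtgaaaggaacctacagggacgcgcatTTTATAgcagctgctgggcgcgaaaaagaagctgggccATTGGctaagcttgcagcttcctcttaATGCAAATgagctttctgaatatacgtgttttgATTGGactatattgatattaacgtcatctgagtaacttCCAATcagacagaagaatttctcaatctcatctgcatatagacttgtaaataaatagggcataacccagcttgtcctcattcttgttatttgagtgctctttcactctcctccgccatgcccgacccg
HIST1H2AC: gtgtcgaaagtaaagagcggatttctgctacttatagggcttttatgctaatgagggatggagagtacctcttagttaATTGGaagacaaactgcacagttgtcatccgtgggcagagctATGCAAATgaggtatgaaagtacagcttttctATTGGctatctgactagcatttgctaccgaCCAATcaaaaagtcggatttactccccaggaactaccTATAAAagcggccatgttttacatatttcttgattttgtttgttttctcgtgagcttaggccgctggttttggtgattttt
HIST1H4K: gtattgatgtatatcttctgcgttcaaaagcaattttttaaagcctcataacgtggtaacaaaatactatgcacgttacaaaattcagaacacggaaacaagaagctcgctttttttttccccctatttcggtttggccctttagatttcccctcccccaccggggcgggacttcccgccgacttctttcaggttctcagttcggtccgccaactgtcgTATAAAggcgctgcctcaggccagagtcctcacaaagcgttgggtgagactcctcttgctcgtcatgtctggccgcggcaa
All 72 genes matched a RefSeq gene, 55 on chromosome 6, 16 on chromosome 1 and 1 on chromosome 12, and 65 had a promoter in the table. TATAAA was found in 44 of the 65 (67.7%), against 11.5% of all 35116 promoters of the same length. CCAAT was found in 55 (84.6%, against 34.6%) and was in every H1, H2A, H2B and H3 promoter but in 3 of 13 H4 promoters. The octamer, the site of the POU factor OCT1 in H2B promoters, was found in 26 (40%, against 1.8%), among them 11 of 16 H2A and 14 of 18 H2B promoters. These matches describe letters in a window and not binding. The windows of head-to-head genes such as HIST1H2AM and HIST1H2BO overlap, and HIST1H3D has a window that is also that of HIST1H2AD. A site in such a window was counted for both genes, and may belong to the other gene.

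HIST1H2BK gave the largest part of the signal. Its share of the summed histone FPKM was 26.8% and 31.3% in cinobufagin-treated Kasumi-1 libraries, against 15.2% and 17.3% in untreated ones. In HL60 cells the share was 51.4% and 54.2% with cinobufagin, against 29.5% and 30.5% without. Over all 72 genes the mean sum was 87.2 FPKM in treated and 49.0 FPKM in untreated Kasumi-1 cells, a ratio of 1.78. The same means were 577.7 FPKM in treated and 90.4 FPKM in untreated HL60 cells, a ratio of 6.39. Without HIST1H2BK the ratios were 1.51 in Kasumi-1 and 4.31 in HL60 cells. These sums include the genes that were not tested, so they do not depend on the filter.

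The sums of the 5 families differed in how far treated and untreated cells stood apart. The H2B sum was 378.1 and 384.8 FPKM in treated HL60 libraries, against 40.3 and 43.7 FPKM in untreated ones, the highest ratio of the families at 9.08. The H2A ratio in HL60 cells was 5.38, that of H1 4.57, that of H3 3.67 and that of H4 1.95. In Kasumi-1 cells the H2B ratio was 2.37, that of H1 2.01, that of H2A 1.85 and that of H4 1.19. The H2B ratios depend on HIST1H2BK. In HL60 cells it held 304.9 of a mean H2B sum of 381.4 FPKM treated and 27.1 of 42.01 FPKM untreated. In Kasumi-1 cells it held 25.2 of 40.11 FPKM treated and 7.96 of 16.95 FPKM untreated. Family ratios without it were not computed, so the first place of H2B is not shown for its other genes. The H3 sum was lower in treated Kasumi-1 cells, at 2.102 and 2.71 FPKM, against 4.47 and 4.16 FPKM in untreated ones, a ratio of 0.558. In each line the libraries of the 2 treatments did not overlap in any family sum except H4 in Kasumi-1 cells, at 14.04 and 10.5 FPKM treated against 8.93 and 11.6 FPKM untreated. No test was made on the sums.

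**Figure D1:**
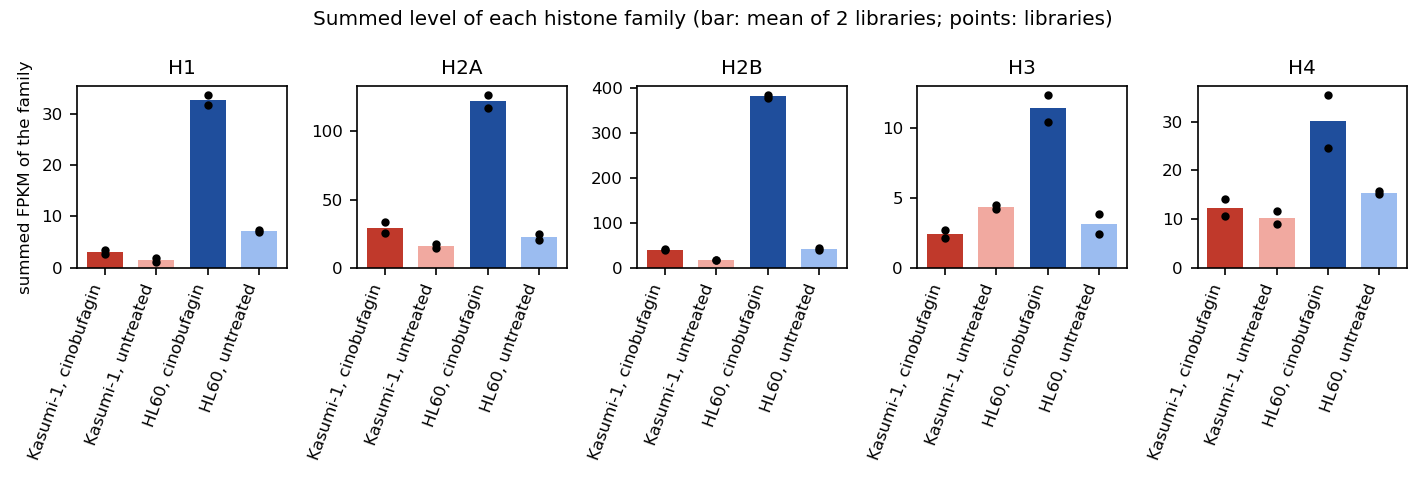
Summed FPKM of all genes of each histone family, on linear axes that differ between panels. Bars are the mean of 2 libraries and points the libraries, in the order Kasumi-1 with cinobufagin, Kasumi-1 untreated, HL60 with cinobufagin and HL60 untreated; treated HL60 stands highest in every panel, with 378.1 and 384.8 FPKM for H2B.

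Tests were made gene by gene with limma on log2(FPKM + 1), with p-values adjusted by Benjamini-Hochberg over the 12511 genes tested. Genes with an adjusted p under 0.05 are said to be called. In Kasumi-1 cells 8 of the 35 tested histone genes were higher with cinobufagin and 0 lower, where 10.1% of all tested genes were higher, 16.2% lower and 26.3% either; at an unadjusted p under 0.05, 14 of the 35 differed. In HL60 cells 26 of the 35 were higher and 0 lower, where 36% of all tested genes were higher, 37.6% lower and 73.6% either; at an unadjusted p under 0.05, 27 of the 35 differed. The median log2 change of the 35 genes was 0.23 in Kasumi-1 and 1.23 in HL60 cells, beside medians of -0.04 and -0.01 over all tested genes in the same lines. All 8 genes called in Kasumi-1 cells were among the 26 called in HL60 cells. The Kasumi-1 count was 4 without untreated Kasumi-1 replicate 2 or treated Kasumi-1 replicate 1, and 5 without treated Kasumi-1 replicate 2 or either treated HL60 library.

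The filter bears on the HL60 count. Of the 35 genes, 16 reached an FPKM of 1 in 2 libraries only through the treated HL60 libraries, so the filter itself favours higher values there, and 11 of them were called. The other 19 reached it without those libraries; 15 of the 19 were called higher in HL60 cells and 0 lower, beside the 36% and 37.6% of all tested genes. By family, these were 1 of 1 H1, 5 of 6 H2A, 6 of 7 H2B, 1 of 1 H3 and 2 of 4 H4 genes. No gene passed only through the treated Kasumi-1 libraries. The genes just inside the filter were HIST1H2AD, HIST1H2AH and HIST2H2BA, with means over the 8 libraries of 0.565, 0.469 and 0.388 FPKM. Just outside it were HIST1H4E, HIST2H2BF and HIST1H2AK, at 0.614, 0.510 and 0.489 FPKM.

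Most of these values are low. The mean over the 8 libraries ran between 0.388 and 91.3 FPKM in the 35 tested genes and was under 5 FPKM in 29 of them. The 37 genes not tested reached at most 1.62 FPKM in any library, and 8 of them were at 0 in all 8. Near-identical copies cannot be told apart: HIST2H2AA3 and HIST2H2AA4 had equal nonzero values in 6 libraries, HIST2H4A and HIST2H4B in 7, and HIST2H3A and HIST2H3C in 8. Counting such copies once left 7 of 33 genes higher in Kasumi-1 and 24 of 33 in HL60 cells. For 48 of the 64 genes with a nonzero value, all values were whole multiples of a smallest step, within a tolerance of 0.05. The number of fragments in a step is not known, and 2 of the 48 genes had a single nonzero value, which any step fits. For 11 tested genes of this kind no library held more than 20 steps. HIST1H4J and HIST1H4K held equal steps in every Kasumi-1 library, but their FPKM were not equal, so they were not counted as copies.

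Other RNAs that have no poly(A) tail, which the selection should remove, were also higher with cinobufagin in part. Of 18 such RNAs with a row, 8 were tested; 1 was higher in Kasumi-1 and 4 in HL60 cells with cinobufagin, and 0 were lower in either. Of all tested genes 10.1% were higher in Kasumi-1 and 36% in HL60 cells. With 8 RNAs tested, neither 1 of 8 in Kasumi-1 nor 4 of 8 in HL60 cells stands far from that share. RN7SK, the 7SK RNA that holds P-TEFb inactive, had 59.3 and 41.9 FPKM in treated and 11.8 and 24.5 FPKM in untreated Kasumi-1 libraries. RN7SK read 129 and 102 FPKM in treated HL60 and 12.7 and 19.4 FPKM in untreated HL60 libraries. Treated libraries were above untreated ones in both lines, with a log2 change of 1.49 (limma, SE 0.36, adjusted p = 0.0285) in Kasumi-1 and 2.79 (limma, SE 0.36, adjusted p = 0.000448) in HL60 cells. In HL60 cells RN7SL1 and RN7SL2, the RNAs of the signal recognition particle, changed by 1.14 and 1.03 and SCARNA2 by 1.39, all called by limma. The sum of the 18 RNAs was 127.9 and 147.9 FPKM in treated against 52.2 and 98.1 FPKM in untreated Kasumi-1 libraries. In HL60 cells it was 397.9 and 280.5 FPKM treated against 75.2 and 171.5 FPKM untreated. Treated HL60 replicate 1 includes RNY4 at 104.2 FPKM, which was at 0 in the other 7 libraries. Untreated HL60 replicate 2 includes RNY1 at 31.3 FPKM, at 0 in the other 7, and RNU6ATAC at 35.4 FPKM, which was at 0 in untreated HL60 replicate 1. The RNAs without a tail that were called were all higher with cinobufagin, as were the histone genes called, and their part in the histone result was not tested.

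H1 was represented by HIST1H1C, which encodes the linker histone H1.2 and was the only tested H1 gene. It had 2.3 and 3.35 FPKM in treated and 1.76 and 1 FPKM in untreated Kasumi-1 libraries. In HL60 cells it had 30.5 and 32.2 FPKM with cinobufagin and 6.49 and 6.52 FPKM without. Treated libraries lay above untreated ones in both lines, by a wide gap in HL60 and a narrow one in Kasumi-1. The log2 change was 0.69 (limma, SE 0.18, adjusted p = 0.0356) in Kasumi-1 and 2.11 (limma, SE 0.18, adjusted p = 5.76e-05) in HL60 cells. The Kasumi-1 call was lost without untreated Kasumi-1 replicate 2 (adjusted p = 0.129), without treated Kasumi-1 replicate 2 (0.138) and without any single HL60 library (0.0622 to 0.067). It was also lost when only the 2 Kasumi-1 groups were fitted (adjusted p = 0.142) and with no filter (0.0678).

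Among the H2A genes, 3 of 12 tested were higher in Kasumi-1 and 8 of 12 in HL60 cells with cinobufagin, beside 10.1% and 36% of all tested genes. Of the 6 H2A genes that reached the filter without the treated HL60 libraries, 5 were called higher in HL60 cells. The highest H2A genes were the near-identical pair HIST2H2AA3 and HIST2H2AA4 of the cluster on chromosome 1. HIST2H2AA3 had 8.69 and 6.98 FPKM in treated and 4.13 and 2.66 FPKM in untreated Kasumi-1 libraries. In HL60 cells the same gene had 38.8 and 35.8 FPKM with cinobufagin and 5.78 and 4.57 FPKM without. HIST2H2AA4 had the same values as HIST2H2AA3 in 6 libraries and 38.5 and 35.6 FPKM in the 2 treated HL60 libraries. Neither line showed overlap between treatments for this pair. The log2 change of HIST2H2AA3 was 1.02 (limma, SE 0.19, adjusted p = 0.0114) in Kasumi-1 and 2.64 (limma, SE 0.19, adjusted p = 2.27e-05) in HL60 cells. HIST2H2AA4 gave 1.02 (adjusted p = 0.0114) in Kasumi-1 and 2.63 (adjusted p = 2.29e-05) in HL60 cells by limma. Without treated Kasumi-1 replicate 1 the Kasumi-1 calls of both copies were lost (adjusted p = 0.0585 and 0.0582), as they were when only the 2 Kasumi-1 groups were fitted (0.0689 for each).

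HIST1H2AC had 2.93 and 3.14 FPKM in treated and 0.683 and 1.4 FPKM in untreated Kasumi-1 libraries. In HL60 cells it had 14.3 and 12.6 FPKM with cinobufagin and 1.81 and 1.12 FPKM without. Both lines had their treated libraries above their untreated ones. In steps, these values were 14 and 20 treated against 4 and 9 untreated in Kasumi-1, and 83 and 80 treated against 11 and 7 untreated in HL60 cells. The log2 change was 1.01 (limma, SE 0.20, adjusted p = 0.0146) in Kasumi-1 and 2.56 (limma, SE 0.20, adjusted p = 3.48e-05) in HL60 cells. The Kasumi-1 call was lost without untreated replicate 1 (adjusted p = 0.0531), treated replicate 1 (0.0568) or treated replicate 2 (0.0639) of that line, and when only the 2 Kasumi-1 groups were fitted (0.0617).

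HIST1H2AG and HIST2H2AC were called in HL60 cells but not in Kasumi-1. HIST1H2AG had 0.976 and 1.1 FPKM in treated and 0.796 and 0.543 FPKM in untreated Kasumi-1 libraries. With cinobufagin, HL60 libraries of HIST1H2AG held 7.03 and 5.34 FPKM, and without it 1.35 and 1.12 FPKM, a log2 change of 1.68 (limma, SE 0.14, adjusted p = 4.26e-05). HIST2H2AC had 7.73 and 3.79 FPKM in treated and 3.61 and 4.36 FPKM in untreated Kasumi-1 libraries, and those groups overlap. The HL60 libraries of HIST2H2AC read 12.3 and 12.8 FPKM treated and 4.95 and 3.08 FPKM untreated, a log2 change of 1.46 (limma, SE 0.30, adjusted p = 0.00394). In Kasumi-1 cells the log2 changes were 0.29 for HIST1H2AG (limma adjusted p = 0.163) and 0.38 for HIST2H2AC (adjusted p = 0.398). The other H2A genes called in HL60 cells were HIST1H2AD, HIST1H2AI and HIST3H2A, all with treated HL60 values of 3.64 FPKM or less. HIST3H2A was listed at 0 in all 4 Kasumi-1 libraries.

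Among the H2B genes, 3 of 12 tested were higher in Kasumi-1 and 11 of 12 in HL60 cells with cinobufagin, beside 10.1% and 36% of all tested genes. Of the 7 H2B genes that reached the filter without the treated HL60 libraries, 6 were called higher in HL60 cells. HIST1H2BK, an H2B gene known to make polyadenylated mRNA, had 24.9 and 25.6 FPKM in treated and 7.59 and 8.32 FPKM in untreated Kasumi-1 libraries. HIST1H2BK read 299.6 and 310.3 FPKM in treated HL60 and 26.7 and 27.6 FPKM in untreated HL60 libraries. The treated Kasumi-1 libraries thus stood near the level of untreated HL60. Its log2 change was 1.55 (limma, SE 0.06, adjusted p = 0.000275) in Kasumi-1 and 3.44 (limma, SE 0.06, adjusted p = 1.4e-07) in HL60 cells. The call of HIST1H2BK in both lines held under every alternative run. In the RefSeq table the extent of HIST1H2BK spans HIST1H4I, so fragments of the 2 genes may not be separable.

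HIST1H2BO had a change near that of HIST1H2BK in HL60 cells on the log2(FPKM + 1) scale and was not called in Kasumi-1. That scale understates changes of low genes. The HL60 means were 13.8 FPKM treated against 0.398 FPKM untreated for HIST1H2BO, and 304.9 against 27.1 FPKM for HIST1H2BK. The Kasumi-1 values of HIST1H2BO were 0.547 and 0.615 FPKM with cinobufagin and 0.445 and 0.507 FPKM without. With cinobufagin, HL60 libraries of HIST1H2BO held 12.9 and 14.7 FPKM, and without it 0.377 and 0.419 FPKM. The 2 lines had like levels untreated, all under 1 FPKM, and treated HL60 stood apart. Its log2 change was 0.10 (limma, SE 0.08, adjusted p = 0.413) in Kasumi-1 and 3.40 (limma, SE 0.08, adjusted p = 3.45e-07) in HL60 cells. It reached the filter only through the treated HL60 libraries.

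HIST1H2BC and HIST1H2BD were higher with cinobufagin in both lines. HIST1H2BC had 2.15 and 2.31 FPKM in treated and 0.752 and 0.685 FPKM in untreated Kasumi-1 libraries. The HL60 libraries of HIST1H2BC read 16.9 and 14.2 FPKM treated and 2.42 and 3.77 FPKM untreated. No libraries of the 2 treatments overlapped. Its log2 change was 0.91 (limma, SE 0.16, adjusted p = 0.0105) in Kasumi-1 and 2.03 (limma, SE 0.16, adjusted p = 3.99e-05) in HL60 cells. HIST1H2BD, also known to make polyadenylated mRNA, had 2.61 and 2.35 FPKM in treated and 1.48 and 0.662 FPKM in untreated Kasumi-1 libraries. HIST1H2BD read 13.6 and 13.6 FPKM in treated HL60 and 1.75 and 2.67 FPKM in untreated HL60 libraries. Again no libraries overlapped. Its log2 change was 0.78 (limma, SE 0.21, adjusted p = 0.0383) in Kasumi-1 and 2.199 (limma, SE 0.21, adjusted p = 9.42e-05) in HL60 cells. The Kasumi-1 call of HIST1H2BD was lost without untreated Kasumi-1 replicate 2 (adjusted p = 0.126), treated Kasumi-1 replicate 1 (0.141) or 2 (0.1), or treated HL60 replicate 1 (0.0716) or 2 (0.0715), and that of HIST1H2BC without untreated Kasumi-1 replicate 2 (0.0532). The call of HIST1H2BD was also lost when only the 2 Kasumi-1 groups were fitted (adjusted p = 0.109) and with no filter (0.0735).

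HIST2H2BE, HIST1H2BJ, HIST1H2BE and HIST2H2BC were called in HL60 cells and not in Kasumi-1. HIST1H2BJ and HIST1H2BE passed the filter only through the treated HL60 libraries. HIST2H2BE had 1.07 and 0.877 FPKM in treated and 0.725 and 0.563 FPKM in untreated Kasumi-1 libraries. With cinobufagin, HL60 libraries of HIST2H2BE held 6.69 and 7.09 FPKM, and without it 1.62 and 1.27 FPKM, a log2 change of 1.69 (limma, SE 0.10, adjusted p = 1.1e-05). The Kasumi-1 groups of HIST2H2BE did not overlap but gave a log2 change of 0.26 (limma adjusted p = 0.105). HIST1H2BJ had 0.778 and 0.0973 FPKM in treated and 0.211 and 0.769 FPKM in untreated Kasumi-1 libraries, with overlap. The HL60 libraries of HIST1H2BJ read 4.57 and 5.88 FPKM treated and 0.459 and 0.794 FPKM untreated, a log2 change of 1.94 (limma, SE 0.28, adjusted p = 0.000746). HIST1H2BJ stood at low levels everywhere but in treated HL60. HIST1H2BE had 1.09 and 0.468 FPKM in treated and 0.127 and 0 FPKM in untreated Kasumi-1 libraries. HIST1H2BE read 6.65 and 5.01 FPKM in treated HL60 and 0 and 0.478 FPKM in untreated HL60 libraries, a log2 change of 2.48 (limma, SE 0.24, adjusted p = 0.000114). The 2 Kasumi-1 groups did not overlap, with a log2 change of 0.72 (limma adjusted p = 0.0748), which passed without short RNAs and repeated symbols (0.0479).

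HIST2H2BC, which RefSeq lists as a transcribed pseudogene, had 1.99 and 2.73 FPKM in treated and 1.39 and 1.72 FPKM in untreated Kasumi-1 libraries. With cinobufagin, HL60 libraries of HIST2H2BC held 7.32 and 5.14 FPKM, and without it 3.8 and 3.52 FPKM. Treated libraries were above untreated ones in both lines, by less than in the other named H2B genes in HL60 cells. The log2 change was 0.39 (limma, SE 0.17, adjusted p = 0.145) in Kasumi-1 and 0.62 (limma, SE 0.17, adjusted p = 0.0156) in HL60 cells. The difference between these changes was -0.23 (limma adjusted p = 0.446) and did not pass. Its HL60 call was lost without untreated HL60 replicate 2 (adjusted p = 0.0698) or treated HL60 replicate 1 (0.08). The single tested H2B gene with no HL60 call was HIST1H2BH, at 0 in all 4 HL60 libraries and at 1.3 and 2.2 FPKM in treated against 2.66 and 1.21 FPKM in untreated Kasumi-1 libraries.

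Of 14 H3 genes, HIST1H3D and HIST1H3H were tested, and both were higher in HL60 cells. HIST1H3D passed the filter only through the treated HL60 libraries. HIST1H3H had 0.534 and 0.401 FPKM in treated and 1.74 and 1.19 FPKM in untreated Kasumi-1 libraries. The HL60 libraries of HIST1H3H read 3.08 and 5.04 FPKM treated and 0.631 and 1.23 FPKM untreated. Treated HL60 was above untreated HL60, while treated Kasumi-1 was below untreated Kasumi-1. The log2 change was -0.74 (limma, SE 0.23, adjusted p = 0.06) in Kasumi-1 and 1.38 (limma, SE 0.23, adjusted p = 0.00155) in HL60 cells. The Kasumi-1 difference passed the threshold without treated HL60 replicate 1 (adjusted p = 0.0473) or 2 (0.0472), with a pseudocount of 0.1 (0.0369) and with short RNAs and repeated symbols removed (0.0368). HIST1H3D had 0 and 0.266 FPKM in treated and 0.088 and 0.134 FPKM in untreated Kasumi-1 libraries. HIST1H3D read 3.14 and 4.1 FPKM in treated HL60 and 0.34 and 0.413 FPKM in untreated HL60 libraries, a log2 change of 1.74 (limma, SE 0.14, adjusted p = 4.35e-05). HIST1H3D overlaps HIST1H2AD in the RefSeq table, so the values of the 2 genes may share fragments.

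Among the H4 genes, 1 of 8 tested was higher in Kasumi-1 and 4 of 8 in HL60 cells, the lowest share of the families in HL60. Of all tested genes 10.1% were higher in Kasumi-1 and 36% in HL60 cells, so with 8 genes tested neither count stands far from that share. HIST1H4C and HIST1H4H, among the 4, passed the filter only through the treated HL60 libraries. HIST2H4A and HIST2H4B are near-identical copies, and the RefSeq extent of HIST2H4B overlaps HIST2H2AA4, HIST2H2BC and HIST2H3A. HIST2H4A had 3.57 and 2.68 FPKM in treated and 1.38 and 2.09 FPKM in untreated Kasumi-1 libraries. With cinobufagin, HL60 libraries of HIST2H4A held 7.27 and 5.68 FPKM, and without it 2.07 and 2.31 FPKM, and HIST2H4B differed from it only in treated HL60 replicate 2, at 5.11 FPKM. Both lines showed no overlap between treatments. HIST2H4A gave a log2 change of 0.60 (limma, SE 0.17, adjusted p = 0.0489) in Kasumi-1 and 1.22 (limma, SE 0.17, adjusted p = 0.000699) in HL60 cells. HIST2H4B gave 0.60 (adjusted p = 0.0672) and 1.16 (adjusted p = 0.00156) in the same lines by limma. The Kasumi-1 call of HIST2H4A was lost when any single library was left out, with adjusted p between 0.0503 and 0.198. It was lost as well with a pseudocount of 0.1 (adjusted p = 0.0512), no filter (0.0897), only the 2 Kasumi-1 groups (0.129) and the replicate block (0.0519), while HIST2H4B passed with quantile normalization (0.0454) and without short RNAs and repeated symbols (0.0436).

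HIST1H4K, named as the third most abundant H4 gene, was called in neither line. It had 2.65 and 1.63 FPKM in treated and 2.36 and 2.33 FPKM in untreated Kasumi-1 libraries. The HL60 libraries of HIST1H4K read 4.76 and 2.91 FPKM treated and 3.99 and 3.14 FPKM untreated. The treatments overlapped in both lines. Its log2 change was -0.11 (limma, SE 0.23, adjusted p = 0.769) in Kasumi-1 and 0.06 (limma, SE 0.23, adjusted p = 0.826) in HL60 cells. HIST1H4J was not called either, at 4.31 and 2.52 FPKM in treated and 3.19 and 3.1 FPKM in untreated HL60 libraries. HIST1H4J and HIST1H4K held equal steps in Kasumi-1 libraries, 11 and 9 treated and 12 and 13 untreated. Both held 17 steps in untreated HL60 replicate 2, so they may not be separate readings. HIST1H4H and HIST1H4C were the other H4 genes called in HL60 cells. HIST1H4H held 13 and 8 steps in treated against 1 and 3 steps in untreated HL60 libraries. HIST1H4C held 6 and 4 steps in treated against 2 and 1 steps in untreated HL60 libraries. Its log2 change was 0.80, near the threshold (limma adjusted p = 0.0466).

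**Figure D2:**
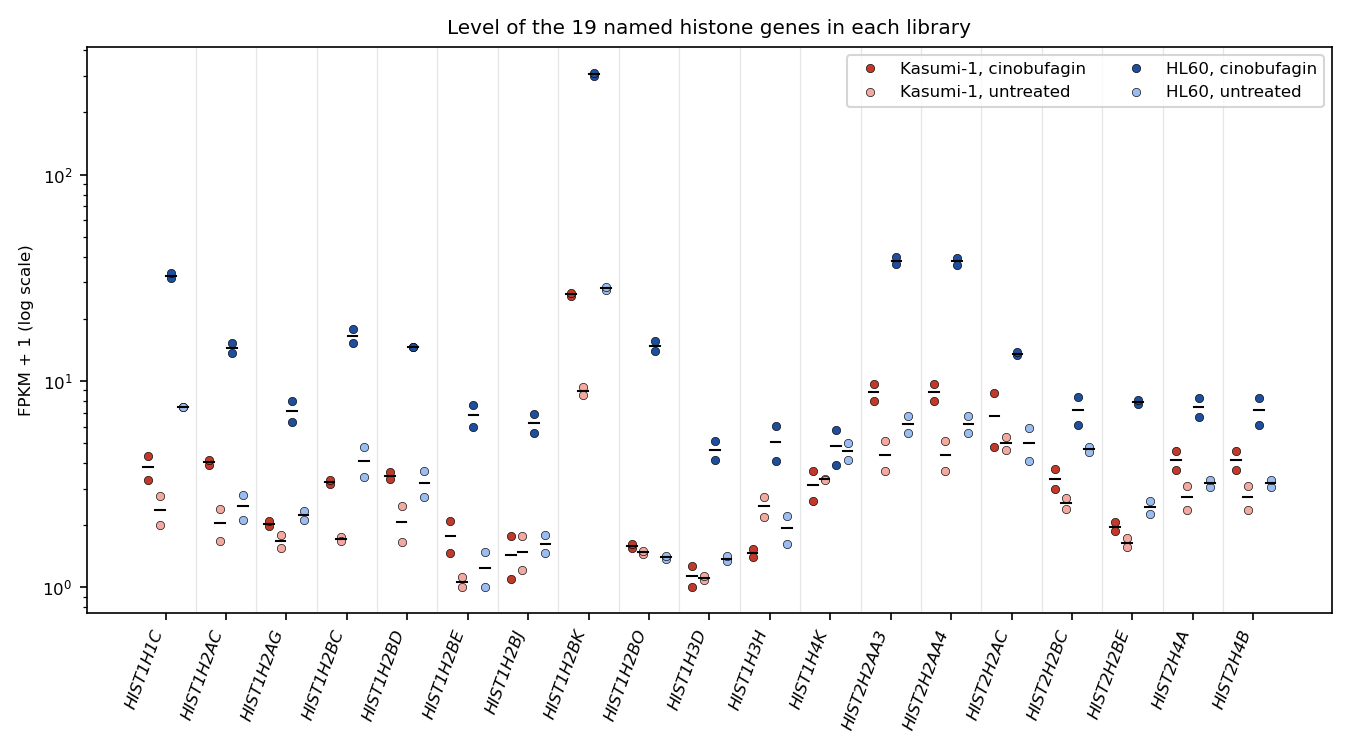
FPKM + 1 on a log axis for the 19 named histone genes. Points are single libraries and bars the mean of 2, in the order Kasumi-1 with cinobufagin, Kasumi-1 untreated, HL60 with cinobufagin and HL60 untreated; HIST1H2BK in treated HL60 is the highest at 299.6 and 310.3 FPKM, and HIST1H4K overlaps between treatments in both lines.

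The change in Kasumi-1 cells was set against that in HL60 cells for each gene. The 2 changes share no libraries. Of the 35 genes, 20 differed between the lines, all 20 with the smaller change in Kasumi-1 and 0 with the larger; in that difference 33.1% of all tested genes were lower, 30.1% higher and 63.1% either. Of these 20, 10 are among the 16 genes that passed the filter only through treated HL60, where the filter itself favours this direction. Of the 19 genes that reached it otherwise, 10 differed, all with the smaller change in Kasumi-1. The median difference of log2 changes was -1.12 over the 35 genes and -0.03 over all tested genes. The largest difference was that of HIST1H2BO, at -3.30 (limma, SE 0.11, adjusted p = 4.52e-06), followed among the named genes by HIST1H3H at -2.12 (limma, SE 0.33, adjusted p = 0.0016) and HIST1H2BJ at -2.003 (limma, SE 0.40, adjusted p = 0.00466). HIST1H2BK differed by -1.89 (limma, SE 0.08, adjusted p = 9.1e-06), although it was called in both lines. HIST2H4A gave -0.62 (limma, SE 0.25, adjusted p = 0.0644) and HIST2H2AC -1.08 (limma, SE 0.42, adjusted p = 0.0619), which did not pass. The first passed without untreated (adjusted p = 0.0306) or treated (0.0475) Kasumi-1 replicate 1 and without short RNAs and repeated symbols (0.0446). HIST2H2AC passed without untreated HL60 replicate 1 (adjusted p = 0.0452), without treated Kasumi-1 replicate 1 (0.00854), with the replicate block (0.0463) and without short RNAs and repeated symbols (0.0388). With a pseudocount of 0.1 the difference was lost for HIST1H2BC (adjusted p = 0.0512), HIST1H2BD (0.0506) and HIST1H2BE (0.167). By family the difference was called for 1 of 1 H1, 7 of 12 H2A, 9 of 12 H2B, 2 of 2 H3 and 1 of 8 H4 genes. HIST1H2AE was the gene of the 35 whose change was larger in Kasumi-1, at 0.62 there and 0.51 in HL60 cells, neither called.

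**Figure D3:**
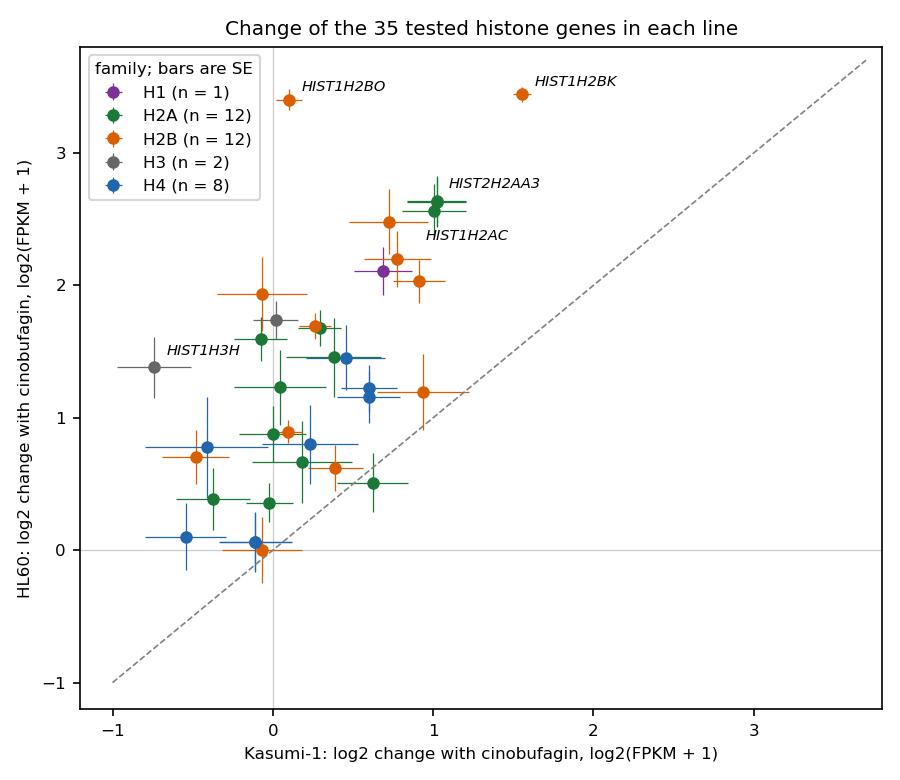
Log2 change with cinobufagin in Kasumi-1 (x axis) and in HL60 (y axis) for the 35 tested histone genes, on log2(FPKM + 1), with SE bars and colour by family. The dashed line marks equal change; 34 of the 35 points lie above it, and HIST1H2BO stands at 0.10 in Kasumi-1 and 3.40 in HL60.

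Untreated Kasumi-1 and untreated HL60 cells differed in 15 of the 35 genes: 2 were higher and 13 lower in Kasumi-1, where 35.9% of all tested genes were higher, 33.8% lower and 69.7% either. HIST1H2BK was lower in Kasumi-1 by 1.65 ± 0.06 on the log2 scale (SE; limma adjusted p = 8.74e-07), and HIST1H1C by 1.67 ± 0.18 (adjusted p = 0.000194). HIST1H2BC was lower by 1.23 ± 0.16 (limma adjusted p = 0.000506). The 2 higher genes were HIST1H2BH, at 2.66 and 1.21 FPKM in Kasumi-1 and 0 in both HL60 libraries, and HIST1H2AJ, at 1.37 and 1.14 FPKM in Kasumi-1 and 0.362 and 0.469 FPKM in HL60. The sum over the 72 genes was 49.8 and 48.1 FPKM in untreated Kasumi-1 libraries, against 90.4 and 90.3 FPKM in untreated HL60 libraries. The count of lower genes was 8 without untreated HL60 replicate 2 or without untreated Kasumi-1 replicate 2, and that of higher genes 1 without any single untreated library.

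Many H2A and H2B genes stand head to head and share a promoter region. With starts at most 500 bases apart in the RefSeq table, 11 such pairs were found, and both genes were tested in 5. In HL60 cells both genes were called higher in 4 of the 5 pairs. Taken singly, 36% of all tested genes and 26 of the 35 tested histone genes were higher. These are shares of genes and not of pairs, and no share of pairs was computed. In 2 of the 4, HIST1H2AC with HIST1H2BC and HIST2H2AC with HIST2H2BE, both genes reached the filter without the treated HL60 libraries. In the other pairs HIST1H2BJ, HIST1H2AI and HIST1H2BL reached it only through them. HIST1H2AC and HIST1H2BC changed by 2.56 and 2.03 on the log2 scale, HIST1H2AG and HIST1H2BJ by 1.68 and 1.94. HIST2H2AC and HIST2H2BE changed by 1.46 and 1.69, HIST1H2AI and HIST1H2BL by 1.23 and 0.70. In the pair HIST1H2AM and HIST1H2BO the H2B gene alone was called: HIST1H2AM had 2.09 and 1.72 FPKM in treated and 0.999 and 1.55 FPKM in untreated HL60 libraries, a log2 change of 0.36 (limma, SE 0.15, adjusted p = 0.0628), beside 3.40 for HIST1H2BO. In Kasumi-1 cells both genes were called in the pair HIST1H2AC and HIST1H2BC, at 1.01 and 0.91. Of 23 genes called in HL60 cells with a promoter in the table, 16 held TATAAA, 20 CCAAT and 11 the octamer, and of 8 genes not called 6 held TATAAA, 5 CCAAT and 4 the octamer.

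**Figure D4:**
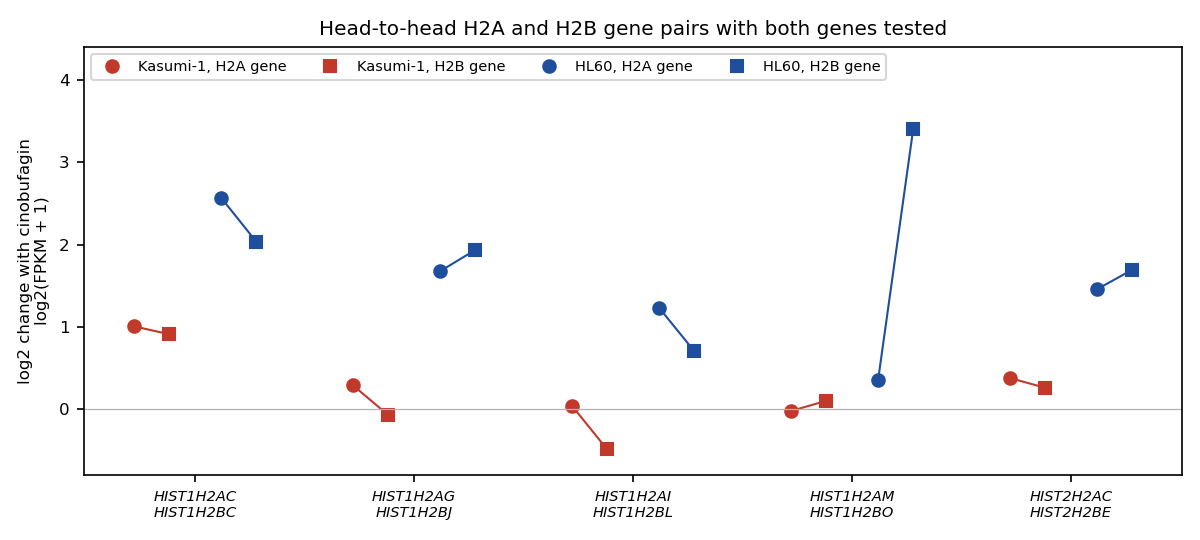
Log2 change with cinobufagin, on log2(FPKM + 1), of the H2A gene (circle) and H2B gene (square) of the 5 head-to-head pairs with both genes tested, Kasumi-1 left of HL60. HIST1H2AM and HIST1H2BO lie far apart in HL60, at 0.36 and 3.40.

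The annotated 3′ ends were compared next. In 23 of the 72 genes a GENCODE transcript model ends with AATAAA or ATTAAA in its last 40 bases, downstream of any stem-loop; 17 of these were tested, with 6 called higher in Kasumi-1 and 16 in HL60 cells. Their median log2 change was 0.60 in Kasumi-1 and 1.68 in HL60 cells. Of the 49 genes with no such model 18 were tested, with 2 called higher in Kasumi-1 and 10 in HL60 cells and medians of 0.03 and 0.79 in the same lines. Over all tested genes 10.1% were higher in Kasumi-1 and 36% in HL60 cells. The 2 Kasumi-1 calls in the set with no such model were HIST1H1C and HIST1H2BK, both known to make polyadenylated mRNA, so the models miss some such genes. The first set also had higher levels, with a median of the mean FPKM over 8 libraries of 1.73, against 0.311 for the other set. The 2 sets also differ in how they met the filter. Of the 16 genes that passed only through treated HL60, HIST1H2BE, HIST1H2BJ, HIST1H4H and HIST3H2A are in the first set and all others in the second. The HL60 counts and medians thus mix the 3′ end with the filter. For 5 genes listed from general knowledge as making polyadenylated mRNA (HIST1H1C, HIST1H2AC, HIST1H2BD, HIST1H2BK and HIST2H2BE), 4 were called higher in Kasumi-1 and 5 in HL60 cells.

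Genes that transcribe histone genes and process their mRNA moved in both directions. All 43 listed genes with a row were tested; 4 were higher and 10 lower in Kasumi-1, and 19 higher and 13 lower in HL60 cells. Over all tested genes 10.1% were higher and 16.2% lower in Kasumi-1, and 36% higher and 37.6% lower in HL60 cells. SLBP, the stem-loop binding protein, averaged 42.2 ± 1.48 FPKM in treated and 48.8 ± 1.29 FPKM in untreated Kasumi-1 cells (SD, n = 2 each), a log2 change of -0.21 (limma adjusted p = 0.0752). In HL60 it averaged 100.3 ± 8.28 FPKM in treated and 77 ± 3.39 FPKM in untreated HL60 cells, a log2 change of 0.38 (limma adjusted p = 0.00248). NPAT averaged 4.9 ± 1.08 FPKM in treated and 5.37 ± 0.817 FPKM in untreated Kasumi-1 cells, and 8.91 ± 0.232 FPKM in treated and 5.71 ± 0.0988 FPKM in untreated HL60 cells. The log2 change of NPAT was -0.12 in Kasumi-1 (limma adjusted p = 0.59) and 0.56 in HL60 cells (adjusted p = 0.00962). The largest changes in HL60 cells were ZCCHC6, a uridylyl transferase that marks histone mRNA for decay, at 1.60; CPSF3, the nuclease that cuts histone and other pre-mRNAs, at -1.12; SNRPE, an Sm protein, at -1.004; and LSM1, of the decay complex that binds oligouridylated ends, at 0.999. In Kasumi-1 cells they were CCNE2, cyclin E2, at -0.59; SNRPE at -0.50; SNRPF, another Sm protein, at -0.49; and SRRT, a partner of the cap-binding complex, at -0.49. The genes named here for the largest changes were called by limma in the line named.

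The DNA replication genes, which act in the same phase as histone genes, were lower more often than higher. So were all tested genes, of which 10.1% were higher and 16.2% lower in Kasumi-1, and 36% higher and 37.6% lower in HL60 cells. With median-ratio scaling the calls over all genes in Kasumi-1 were 51.7% higher, against 38.5% here. Of 46 tested, 3 were higher and 22 lower in Kasumi-1, and 13 higher and 24 lower in HL60 cells. POLD2, a subunit of DNA polymerase delta, averaged 55 ± 1.83 FPKM in treated and 169 ± 4.33 FPKM in untreated HL60 cells (SD, n = 2 each), a log2 change of -1.60. PRIM1, the primase, changed by -0.54 in Kasumi-1 and -1.36 in HL60 cells. LIG1, the replicative ligase, changed by -0.91 and POLA2, a subunit of polymerase alpha, by -0.82 in HL60 cells. In Kasumi-1 cells RRM2, of ribonucleotide reductase, changed by -0.78, POLA1, of polymerase alpha, by -0.56 and GINS3, of the replicative helicase, by -0.48. All of these were called by limma in the line named. RRM2 went the other way in HL60 cells, by 0.30 (limma adjusted p = 0.00344). Also among the 13 genes higher in HL60 cells were ORC6 and E2F1, each at 0.68, and PCNA at 0.61. The median log2 change of the list was -0.22 in Kasumi-1 and -0.21 in HL60 cells, while that of the histone genes was 0.23 and 1.23 in the same lines. The histone median includes 16 genes that passed the filter only through the treated HL60 libraries, which favours a higher value in HL60 cells.

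Histone chaperones and import factors were also lower more often than higher: of 28 tested, 2 were higher and 14 lower in Kasumi-1, and 8 higher and 16 lower in HL60 cells. The shares over all tested genes, again, were 10.1% higher and 16.2% lower in Kasumi-1, and 36% higher and 37.6% lower in HL60 cells. IPO4, an importin for H3 and H4, averaged 5.96 ± 0.369 FPKM in treated and 29.1 ± 1.33 FPKM in untreated HL60 cells (SD, n = 2 each), a log2 change of -2.11. NCL, nucleolin, changed by -0.61 in Kasumi-1 and -1.56 in HL60 cells, and IPO5, another importin, by -0.60 and -1.34 in the same lines. HJURP, the chaperone of the centromeric histone CENPA, was higher in both, by 0.53 in Kasumi-1 and 1.60 in HL60 cells. CHAF1B, of the replication-coupled assembly factor CAF-1, changed by -0.54 in Kasumi-1 cells. All of these passed the limma threshold in the line named.

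Replication-independent histone genes lie outside the clusters, and their mRNAs mostly carry poly(A) tails. Of 15 with a row, 11 were tested; 5 were higher and 3 lower in Kasumi-1, and 9 higher and 1 lower in HL60 cells, beside 10.1% higher and 16.2% lower of all tested genes in Kasumi-1 and 36% and 37.6% in HL60 cells. H1F0, the linker histone of resting cells, averaged 26.3 ± 0.623 FPKM in treated and 14.1 ± 0.625 FPKM in untreated Kasumi-1 cells (SD, n = 2 each), a log2 change of 0.85. In HL60 cells H2AFX changed by 1.35, H1FX by 1.18, CENPA by 1.13 and H3F3B, one of the genes for H3.3, by 0.92. H3F3B was lower in Kasumi-1 cells, at -0.47, where H1FX changed by 0.49 and H2AFJ by 0.48. These too passed the limma threshold in the line named. The median log2 change was 0.12 in Kasumi-1 and 0.76 in HL60 cells.

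**Figure D5:**
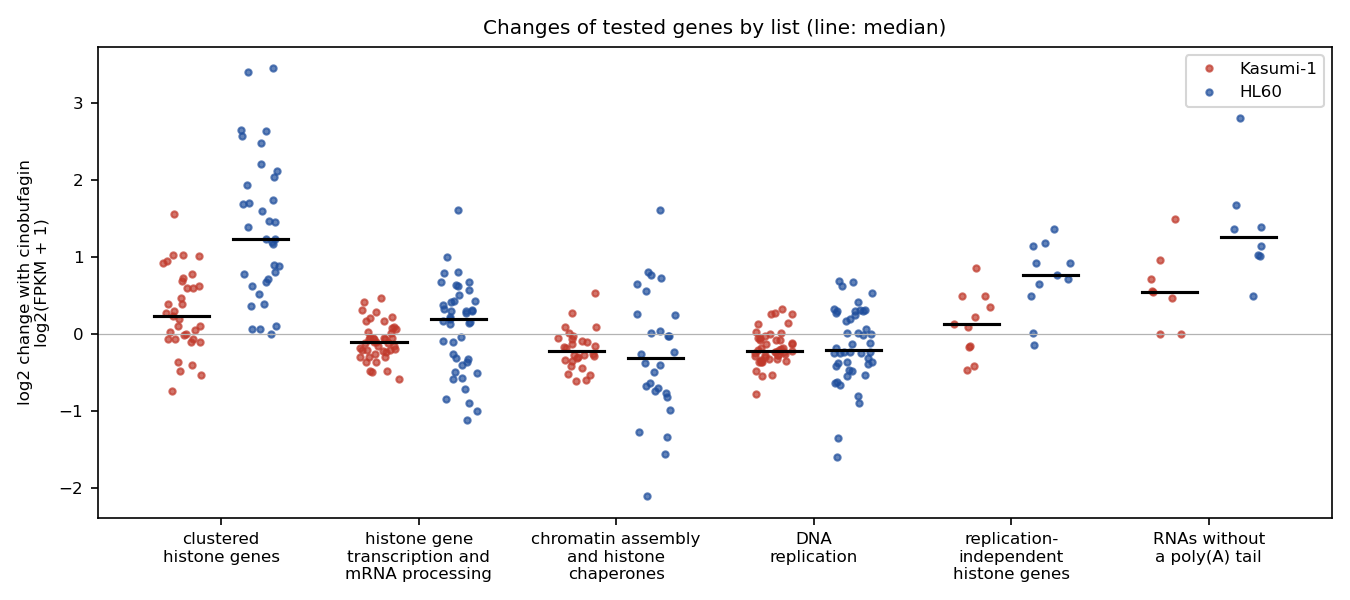
Log2 change with cinobufagin, on log2(FPKM + 1), of each tested gene in the clustered histone set and in 5 related lists, Kasumi-1 (red) left of HL60 (blue); short lines are medians. The histone medians of 0.23 and 1.23 stand above those of the DNA replication list, -0.22 and -0.21, in the same lines. The histone set includes 16 genes that passed the filter only through treated HL60, which favours a higher HL60 median.

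The libraries were alike in depth, with a relative depth of 0.787 to 1.06 and 10623 to 11371 genes at 1 FPKM or more. Known markers of Kasumi-1 were found in that line: RUNX1T1 was at 16.1 to 20.8 FPKM in Kasumi-1 and 0 in HL60 libraries, and KIT at 134 to 159 FPKM in Kasumi-1 and under 1 FPKM in HL60. No marker of HL60 is shown here. Among 7 line markers listed, 6 were higher and 1 lower in untreated Kasumi-1 than in untreated HL60 cells, beside 35.9% and 33.8% of all tested genes. Of the same 7 line markers, 3 were higher and 2 lower in Kasumi-1, and 0 higher and 4 lower in HL60 cells with cinobufagin. For these and the markers that follow, the shares of all tested genes were 10.1% higher and 16.2% lower in Kasumi-1. In HL60 cells they were 36% higher and 37.6% lower, and the markers are few. Of 16 markers of erythroid, megakaryocyte, lymphoid, fibroblast and epithelial cells, 4 were tested, and 0 were called in Kasumi-1 and 3 lower in HL60 cells with cinobufagin. Without EPCAM, which read 72.7 to 78.5 FPKM in Kasumi-1 libraries, their sum was 1.99 to 2.24 FPKM in treated and 2.82 to 3.02 FPKM in untreated Kasumi-1, and 2.79 to 3.15 FPKM in treated and 5.71 to 5.72 FPKM in untreated HL60 libraries. HBB, PF4, MS4A1 and DCN were at 0 in every library. The part of these markers in the histone result was not tested.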

How the data were processed

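The authors deposited 1 table of FPKM values, with 25593 gene rows and 8 library columns, all used. Per the labels' protocols, total RNA was taken with an RNeasy Mini kit and sequenced after a TruSeq Stranded mRNA preparation. Cufflinks 2.2.1, HISAT2 2.1.0, bcl2fastq 2.20.0 and build hg19 are named in the submitters' processing notes. Annotation, strand setting and read totals were not given in the sources used here. Overlapping and antisense genes can therefore not be told apart with certainty. Relative depth was read from the steps of values under 0.3 FPKM and lay between 0.787 and 1.06.

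From the FPKM, log2(FPKM + 1) was fitted with limma 3.58.1 in R 4.3.3, with 1 mean per group over all 8 libraries, an intensity trend and 4 residual degrees of freedom. The 12511 genes that reached 1 FPKM in 2 or more libraries entered, with Benjamini-Hochberg adjustment over all of them. The log2(FPKM + 1) scale understates changes of low genes. With 2 libraries a side, the smallest two-sided permutation p is 0.33, and no such test was used. Replicates correlated at 0.967 to 0.974 over tested genes.

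Members and gene lists were chosen with earlier results of these data known. Every library value is given for the 3 tested members of each family with the highest mean, and for called members (in either line or in the difference) with a mean of at least 5 FPKM in 1 group; from each list, up to 4 genes with the largest called change per line, and SLBP and NPAT. Genes outside this rule that are named as exceptions, pairs or overlaps were chosen after their values were seen, as were the stem-loop pattern, the motifs, the 40-base window, the 500-base pair distance and the limits of the step search (at most 100 steps, and at most 10 for the smallest value). Sequences are from RefSeq (GRCh38.p14) and GENCODE release 29, read with Python 3.11.15. Alternatives covered the pseudocount, filter, scaling, groups fitted, intensity trend, replicate block, short RNAs, near-identical copies and each library left out; the copies and the changes within a replicate number were added after seeing the data.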

Additional observations from a re-analysis of the deposited data

Results flagged for a closer look

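For 14 of the 19 named histone genes the log2 change with cinobufagin differed between the lines, by the test of the difference itself (limma, adjusted p under 0.05), and each was smaller in Kasumi-1. The 19 were named partly for a call in a line or in this difference, so 14 of 19 is not an independent share. Over all tested genes 63.1% differed, 33.1% with the lower change in Kasumi-1. Kasumi-1 minus HL60, the difference of log2 changes was -3.30 for HIST1H2BO, -2.12 for HIST1H3H and -2.003 for HIST1H2BJ. HIST1H2BK gave -1.89, HIST1H2BE -1.76, HIST1H3D -1.72, HIST2H2AA3 -1.62 and its near-identical copy HIST2H2AA4 -1.61. HIST1H2AC gave -1.56, HIST2H2BE -1.43, HIST1H2BD -1.42, HIST1H1C -1.42, HIST1H2AG -1.39 and HIST1H2BC -1.12. HIST1H3H was the called gene of the 14 with the most negative Kasumi-1 value, a log2 change of -0.74 there and 1.38 in HL60 cells. In each of the 14 genes both treated HL60 libraries stood above both untreated ones, which naming genes for their calls favours. HIST1H2BO, HIST1H2BJ, HIST1H2BE and HIST1H3D passed the filter on low values only through the treated HL60 libraries, which favours this direction, and the other 10 of the 14 reached it without them.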

How the results depend on the processing

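Counts of called genes moved with the filter, the groups fitted, the scaling and single libraries; the cause was not tested except where fewer genes or libraries entered. With a filter at 5 FPKM, fewer genes were tested, and 15 histone genes were higher in HL60 (26 in the main test), 11 differed between the lines (20) and 0 were higher in untreated Kasumi-1 (2); no H3 gene was left. With no filter, 5 were higher and 2 lower in Kasumi-1 with cinobufagin (8 and 0), and 4 were higher and 6 lower in untreated Kasumi-1 (2 and 13). Fitting only the 2 groups compared left 3 higher in Kasumi-1. The count lower in Kasumi-1 was 1 when short RNAs and repeated symbols were removed and 1 with a pseudocount of 0.1. Quantile normalization left 1 higher and 18 lower in untreated Kasumi-1. Leaving out each library in turn gave 4 to 6 higher and 0 to 1 lower in Kasumi-1 with cinobufagin, 23 to 27 higher and 0 lower in HL60, 17 to 21 called in the difference, and 1 to 2 higher and 8 to 12 lower in untreated Kasumi-1. Replicate numbers are shared between groups, but the labels do not say that a number marks a shared culture or day. Replicate 1 minus 2 differences correlated at 0.13 to 0.33 between groups, and at 0.27 to 0.43 without short RNAs and repeated symbols. With a replicate block, 28 were higher in HL60, 8 higher and 1 lower in Kasumi-1, 21 called in the difference, and 1 higher and 15 lower in untreated Kasumi-1. Over all genes, 38.5% of the calls in Kasumi-1 with cinobufagin were higher, against 48.3% with quantile normalization and 51.7% with median-ratio scaling.

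No called value changed sign. Among values not called, signs turned as follows on the log2 scale. Kasumi-1 minus HL60, untreated, HIST1H2BO was -0.26 (adjusted p = 0.0216) and HIST2H2AC -0.12 with quantile normalization. HIST1H3D in Kasumi-1 was -0.13 with a pseudocount of 0.1. With each library left out in turn, the change in Kasumi-1 lay between -0.42 and 0.28 for HIST1H2BJ, -0.15 and 0.19 for HIST1H3D, -0.35 and 0.13 for HIST1H4K, and -0.053 and 0.81 for HIST2H2AC. HIST1H4K in HL60 lay between -0.22 and 0.34 and its difference between lines between -0.45 and 0.11. Untreated Kasumi-1 minus HL60 lay between -0.48 and 0.086 for HIST1H2BE, -0.42 and 0.13 for HIST1H2BJ, and -0.26 and 0.29 for HIST2H2AC. Of all named-gene values under the alternatives, 1226 were counted as unchanged, 67 lost a call, 22 gained one and 18 turned sign. The unchanged include the changes within a replicate number, which have no p-value. With 2 libraries a group the limit set for these could not be exceeded, so they say nothing on stability. Their turns of sign in genes not called were not counted. Within replicate 1 in Kasumi-1, HIST1H2BJ was 0.55 against -0.07 in the main fit, and HIST1H4K 0.12 against -0.11. With 2 libraries a group and values mostly under 5 FPKM, depth limits the precision of single-gene values.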
